A study of Mus musculus with 12 samples.

Results

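The genes described here were the fatty acid desaturases and elongases *Scd1*, *Scd2*, *Fads1*, *Fads2*, *Fads3*, *Elovl1*, *Elovl2*, *Elovl3*, *Elovl5* and *Elovl6*. They are 10 of the 54232 genes in a table of liver read counts. The list was set with earlier results of these data known and does not hold every gene of the families. *Scd3*, *Scd4*, *Elovl4*, *Elovl7* and *Fads6* are described apart from it. Livers came from 12 male C57Bl/6J littermates, 10 weeks old, on chow and fasted for 4 h. The 6 *Marchf6* LKO mice (LKO 1 to LKO 6) carried *Marchf6* fl/fl alleles and a Cre recombinase driven by the albumin promoter, so deletion was directed at hepatocytes, while the 6 WT mice (WT 1 to WT 6) carried the same floxed alleles without Cre. No group carried Cre without the floxed alleles, so an effect of Cre itself and of the deletion cannot be told apart. MARCHF6 is a ubiquitin ligase of the endoplasmic reticulum membrane, the study addressed liver lipid metabolism without it, and the comparison gives the mRNA of the chain-modifying enzymes of the same membrane.

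Desaturases put double bonds into fatty acyl-CoA, and elongases (the ELOVL enzymes) perform the condensation step that lengthens it. In the saturated and monounsaturated branch, ELOVL6 lengthens palmitate to stearate, the SCD enzymes convert both into palmitoleate and oleate, and ELOVL1 and ELOVL3 make longer saturated and monounsaturated chains. In the polyunsaturated branch, dietary linoleate and alpha-linolenate pass through FADS2, ELOVL5 and FADS1 to give arachidonate and eicosapentaenoate. ELOVL2 lengthens the products further, and those from eicosapentaenoate lead on toward docosahexaenoate. FADS3, a sphingoid base desaturase, was kept apart from both branches. SREBP-1c, LXR and insulin are the known activators of *Scd1* and *Elovl6* in liver, and polyunsaturated fatty acids repress much of the family.

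Total counts ranged from 14860414 to 22111926 reads on genes per liver, and all 10 genes had at least 3 reads in every liver and passed the filter for testing. The targeted gene, listed under its older symbol *March6*, had 241 ± 8.36 normalized CPM (reads of a gene per 1000000 scaled reads, mean ± SD, n = 6) in WT and 226 ± 16.5 in LKO (log2 fold change -0.09 ± 0.06 SE, edgeR adjusted p = 0.585). Its reads were counted over the whole gene while the floxed allele loses 1 exon, so this count does not check the deletion, and the groups are named by their labels throughout. Hepatocyte identity was plain, with *Alb* (albumin) at 76079 normalized CPM in WT and 66977 in LKO on average. Of the 8 hepatocyte markers, 7 had lower fitted levels in LKO, 2 with an unadjusted edgeR p under 0.05 and 0 after adjustment. Over all genes tested, 11.7% had such an unadjusted p in either direction. The 10 Kupffer cell markers all had higher fitted levels in LKO, 9 of them with an unadjusted edgeR p under 0.05 and 0 after adjustment. Their summed level was 140 to 190 normalized CPM in WT livers and 170 to 294 in LKO livers, none was at 0, and their part in the results was not tested. Of the adipocyte markers, *Lep* had 0 reads in every liver and *Adipoq*, *Plin1* and *Retn* at most 1. The rest of that list was detected, *Cfd* at 0.338 normalized CPM in WT and 0.347 in LKO on average. *Car3* was abundant, at 2350 in WT and 1654 in LKO (log2 fold change -0.51, edgeR adjusted p = 0.167). In whole liver, fewer cells of a type and less RNA per cell cannot be told apart.

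*Scd1* stood far above every other member. Its level per length was 5550 normalized CPM per kb of exon over the 12 livers, and it was the gene with rank 2 by reads in each of the 12 livers. It took 1.41% to 3.33% of all reads in WT and 2.95% to 3.91% in LKO. The next levels per kb were 332 for *Elovl5*, 295 for *Elovl2*, 191 for *Elovl3*, 183 for *Fads2* and 163 for *Fads1*. These 5 genes formed an overlapping series, in which each neighbour's range over WT livers overlapped that of the next. *Elovl6* followed at 27.6, *Elovl1* at 15.8, *Fads3* at 8.25 and *Scd2* at 6.18 normalized CPM per kb. *Elovl6* and *Elovl1* overlapped in WT (14.2 to 47.1 against 12.5 to 16.8) but not in LKO (24.2 to 35.4 against 14.7 to 18.03). *Fads3* and *Scd2* overlapped in both groups. With the longest protein-coding transcript as the length, *Fads1* came to 226 and moved above *Elovl3* and *Fads2*, and *Elovl1* came to 23.8 with its place kept.

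**Figure D1:**
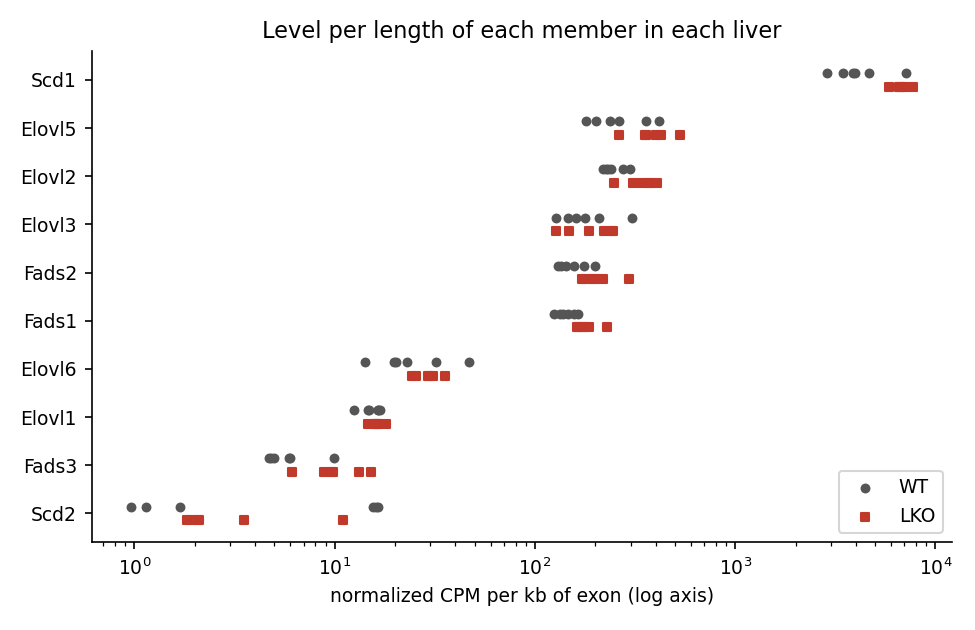
Level of each member in each of 12 livers, as normalized CPM per kb of exon on a log axis, with circles for the 6 WT and squares for the 6 LKO livers. *Scd1* lies apart on the right at a mean of 5550, a group of 5 genes lies between 163 and 332 on average, and *Scd2* at the bottom falls into separate low and high livers.

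None of the 10 members differed between the genotypes at an edgeR adjusted p under 0.05, a threshold that 75 of 17509 genes (0.428%) met. The fitted log2 fold change was above 0 for 9 of 10 members and for 50.0% of all genes. At an unadjusted p under 0.05 the count was 6 of 10 members, all with higher values in LKO, while 11.7% of all genes tested passed in either direction and 6.33% with higher values in LKO. These 6 were *Scd1*, *Fads3* and all 4 genes of the polyunsaturated branch (*Fads2*, *Fads1*, *Elovl5*, *Elovl2*). The median log2 fold change (LKO minus WT) was 0.44 over the polyunsaturated branch and 0.08 over the 5 genes of the saturated and monounsaturated branch, beside 0.00016 over all genes tested. The saturated and monounsaturated median was the value of *Elovl1* with all 12 livers, without WT 3 (0.031) and without LKO 1 (0.053). It was the value of *Elovl3* without WT 6 (0.043) and without LKO 6 (0.15). In replicates 3 to 6, a subset chosen after seeing the data, the median was 0.17, again the value of *Elovl3*. The polyunsaturated median ran from 0.34 (without LKO 1) to 0.50 (without WT 2) with 1 liver left out. By the mean log2 CPM of a branch's genes, LKO livers lay 0.43 ± 0.25 (SD, n = 6) above the WT mean in the polyunsaturated branch. In the other branch they lay 0.10 ± 0.29 above it, and 0.28 ± 0.15 without *Scd2*. By an exact two-sided permutation test over all 924 ways of choosing 6 of 12 livers, 5 members had an unadjusted p under 0.05 (11.7% of all genes). After adjustment over all genes 0 members passed, as did 0 genes of the whole table. The smallest p that this test can give is 0.00216, which became 0.166 after adjustment. Its adjusted p could therefore call no gene here, and the 0 members carry no information. No member had LKO and WT livers that did not overlap, against 1.30% of all genes. DESeq2, which called 350 genes in all (2.00%), called 4 members, namely *Scd1* (adjusted p = 0.0201), *Fads1* (adjusted p = 0.0403), *Elovl2* (adjusted p = 0.0165) and *Fads3* (adjusted p = 0.0245), whereas limma voom called none of the 10 among 85 genes (0.485%). With the replicate number as a block, edgeR called *Elovl2* (adjusted p = 0.0330) and *Fads3* (adjusted p = 0.00984) among 97 of 17509 genes.

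**Figure D2:**
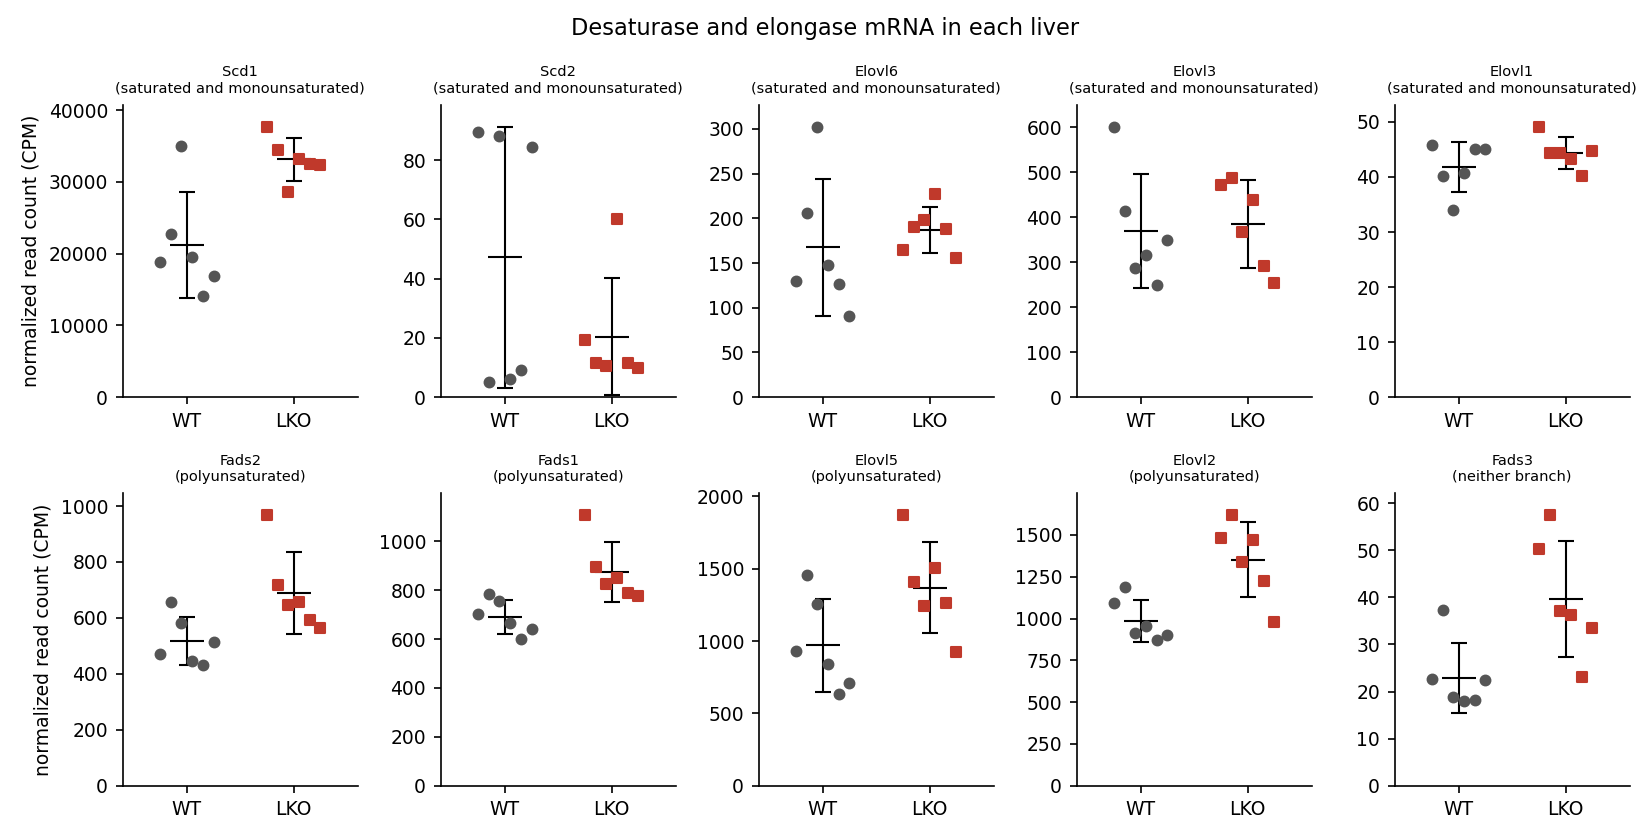
Normalized CPM of the 10 members in each liver (circles WT, squares LKO, in replicate order from left to right), with the mean and SD of each group of 6 as bars and each axis starting at 0. *Scd1* and the polyunsaturated genes lie mostly higher in LKO with 1 or more livers overlapping, and *Scd2* shows 3 WT livers between 84.6 and 89.5 and 1 LKO liver at 59.98 above the rest.

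**Figure D3:**
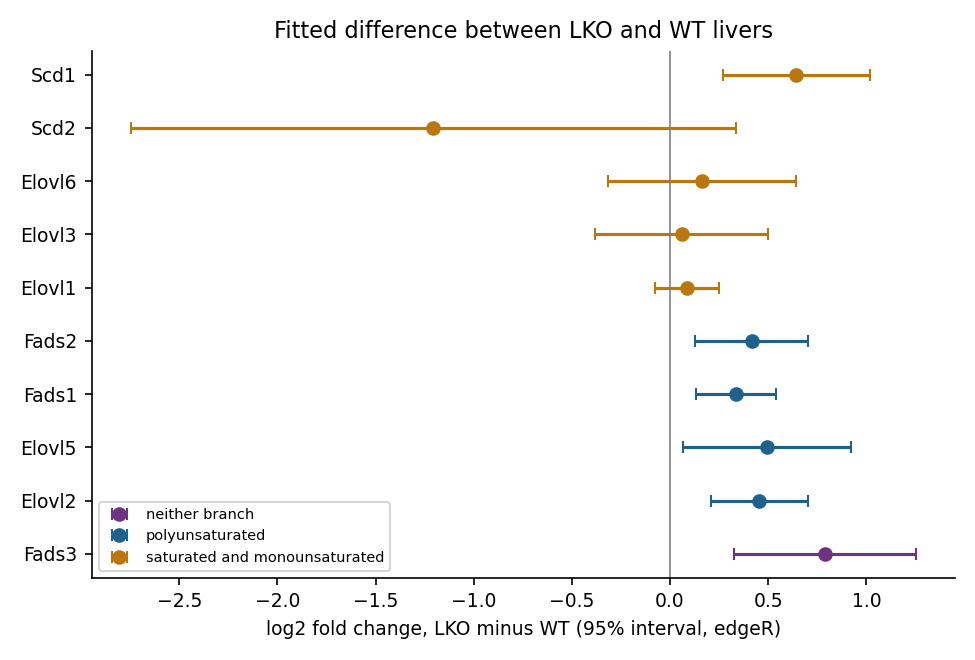
Fitted log2 fold change (LKO minus WT) of each member with its 95% interval from edgeR, coloured by branch. The intervals of *Scd1*, *Fads3* and the 4 polyunsaturated genes lie above 0 before adjustment for multiple tests, and those of *Scd2*, *Elovl6*, *Elovl3* and *Elovl1* include 0.

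*Scd1*, the main liver desaturase of stearate and palmitate, lies on chromosome 19 from 44394455 to 44407879 (GRCm38, minus strand). In WT livers its lowest, median and highest values were 14063, 19162 and 35047 normalized CPM, and in LKO livers 28586, 32842 and 37698. Every LKO liver was above 5 of the 6 WT livers, and the exception was WT 3, which at 35047 exceeded all LKO livers except LKO 1. The spread differed too, with a 2.49-fold range over WT livers and a 1.32-fold range over LKO livers. The fitted log2 fold change was 0.64 ± 0.18 (SE), a 1.56-fold difference, with an unadjusted edgeR p of 0.00235 and an adjusted p of 0.135 (exact permutation p = 0.0130, unadjusted). Without WT 3 the log2 fold change was 0.85 and the edgeR adjusted p was 0.00257, so this 1 liver decided the edgeR call, while DESeq2 passed *Scd1* with all 12 livers. In WT 3 *Elovl6* (303 normalized CPM) was at its highest of the 12 and *Elovl1* (34.0) at its lowest. Within a liver, *Scd1* had 133 ± 29.1 reads for each read of *Elovl6* in WT and 180 ± 33.9 in LKO (SD, n = 6), and the ranges of 111 to 186 and 144 to 230 overlapped.

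The *Scd* genes lie together on chromosome 19 and share sequence. The qPCR primers listed for *Scd1* show where the family can and cannot be told apart:
Scd1 forward: ccaagctggagtacgtctgg
Scd1 reverse: cagagcgctggtcatgtagt
The forward primer matched exon 2 of *Scd1* (chr19:44406578-44406597) and also matched transcripts of *Scd2*, *Scd3* and *Scd4* exactly, while the reverse primer in exon 3 (chr19:44403267-44403286) matched *Scd1* alone. The product spans 140 nt. Of all 50-base stretches in *Scd1* transcripts, 2.97% also occurred in *Scd2*, 3.42% in *Scd3* and 1.72% in *Scd4*. Reads from those stretches cannot be assigned by sequence alone. *Scd3* had 1.42 ± 1.34 normalized CPM in WT and 1.18 ± 0.468 in LKO, and *Scd4* stayed below 1 normalized CPM in every liver.

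*Scd2*, the main stearoyl-CoA desaturase of brain, lies 87590 nt from *Scd1* on the plus strand (19, 44293674 to 44306864) and was the only member with a lower fitted level in LKO. Its level fell into high and low livers that crossed the genotypes. It stood at 89.5 normalized CPM in WT 1, 88.1 in WT 3 and 84.6 in WT 6. The other WT livers had 5.24 (WT 2), 6.26 (WT 4) and 9.21 (WT 5), which made a 17.1-fold range within the group. Among LKO livers only LKO 4 was high, at 59.98 normalized CPM. The others had 19.3 (LKO 1), 11.5 (LKO 2), 10.5 (LKO 3), 11.4 (LKO 5) and 9.95 (LKO 6). The fitted log2 fold change of -1.21 ± 0.72 (SE) had a 95% interval of -2.75 to 0.34 (edgeR adjusted p = 0.549, exact permutation p = 0.515). With 1 liver left out the edgeR value lay between -0.92 (without WT 1) and -1.91 (without LKO 4), and limma voom gave -0.58. *Scd2* did not follow *Scd1* over livers: WT 2, with the next highest WT value of *Scd1* after WT 3 (22745 normalized CPM), had the lowest *Scd2* of all. Of the 50-base stretches of *Scd2*, 2.66% were shared with *Scd1*.

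*Elovl6*, the elongase that feeds stearate to SCD1, spans 129532355 to 129638495 on chromosome 3 (plus strand). Its lowest, median and highest values were 91.3, 139 and 303 normalized CPM in WT and 156, 189 and 227 in LKO. The LKO livers lay inside the WT range, whose upper part came from WT 3 (303) and WT 2 (206). The next WT liver, WT 4 at 148, was below every LKO liver. Its log2 fold change was 0.16 ± 0.22 (SE) with a 95% interval of -0.32 to 0.64 (edgeR adjusted p = 0.835). It ran from 0.037 (without WT 6) to 0.42 (without WT 3, edgeR adjusted p = 0.304) with 1 liver left out and was 0.26 with limma voom. In replicates 3 to 6 without WT 3, chosen after seeing the data, it was 0.66 (adjusted p = 0.130). The qPCR primers listed for *Elovl6* lie in different exons:
Elovl6 forward: gctgactcttgccgtcttca
Elovl6 reverse: gtgtcacctagttcgggtgc
The forward primer lies in exon 3 of 5, where it also matched the transcript of *Gm11295*, and the reverse primer spans the junction of exons 4 and 5, for a product of 180 nt. The start of *Elovl6* overlaps an antisense gene, *Gm35986*, over 129532355 to 129532388, with 32 to 103 reads per liver counted for the latter.

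*Elovl3*, an elongase of long saturated and monounsaturated chains whose liver mRNA is known to follow the circadian clock, had 250, 333 and 602 normalized CPM (lowest, median, highest) in WT and 253, 403 and 487 in LKO. The groups overlapped almost completely. The log2 fold change was 0.06 ± 0.21 (SE, edgeR adjusted p = 0.949), and it turned negative when any of WT 3, WT 5, LKO 1 or LKO 2 was left out, down to -0.03. Its higher values lay in replicates 1 and 2 of both genotypes. The same livers were the highest of their genotype for *Elovl2* (WT 1 1092, WT 2 1187, LKO 1 1479 and LKO 2 1619 normalized CPM). They were also the highest for *Fads3* (22.7, 37.4, 50.4 and 57.5), so this was not particular to *Elovl3*. *Dbp*, an output gene of the clock, was at 12.1 to 21.7 normalized CPM in replicates 1 and 2 of both genotypes and at 60.8 to 76.8 in the other 8 livers. In the 4 livers with low *Dbp*, *Elovl3* was at 602 (WT 1), 414 (WT 2), 471 (LKO 1) and 487 (LKO 2) normalized CPM. In the others it was between 250 and 439, with LKO 4 alone above WT 2. The time of sacrifice of each mouse is not given in the sources used here, and with low *Dbp* as a term, added after seeing the data, the log2 fold change of *Elovl3* was 0.08 (edgeR adjusted p = 0.834).

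**Figure D4:**
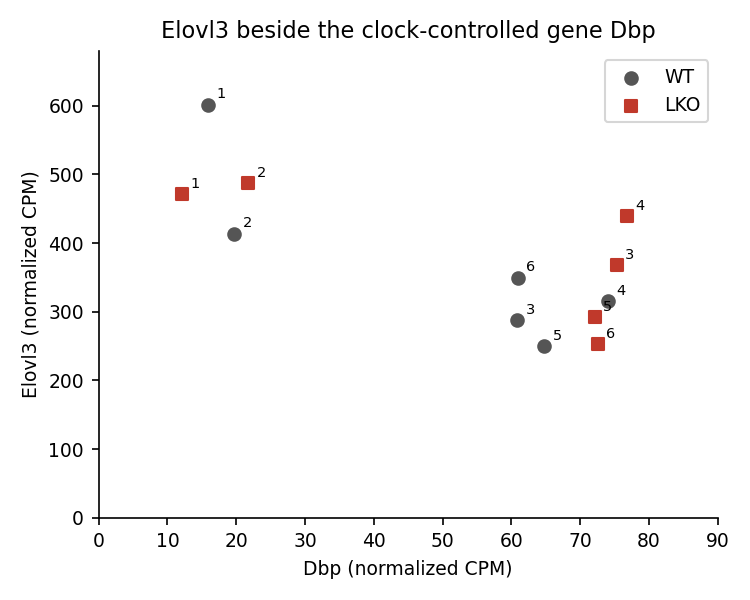
*Elovl3* against *Dbp* in each liver, both as normalized CPM on axes from 0, with circles for WT, squares for LKO and the replicate number beside each point. Replicates 1 and 2 of both genotypes lie on the left with *Dbp* at 12.1 to 21.7 and *Elovl3* at 414 to 602, and the other 8 livers lie on the right with *Dbp* at 60.8 to 76.8.

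*Elovl1*, which makes very long saturated chains for sphingolipids, varied little among livers. Its values ran from 34.0 to 45.8 normalized CPM in WT (median 42.9) and from 40.1 to 49.2 in LKO (median 44.4), a 1.35-fold and a 1.23-fold range. Its log2 fold change was 0.08 ± 0.08 (SE), with a 95% interval of -0.08 to 0.25 (edgeR adjusted p = 0.719), and it was 0.031 without WT 3.

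All 4 genes of the polyunsaturated branch had higher fitted values in LKO, from 1.26-fold for *Fads1* to 1.41-fold for *Elovl5*, and none passed the adjusted threshold. *Fads2* (chromosome 19, 10062765 to 10101746, minus strand), the desaturase of the entry step, had 431, 494 and 657 normalized CPM (lowest, median, highest) in WT and 563, 652 and 968 in LKO. WT 2 at 657 and WT 3 at 581 overlapped the LKO livers. Its log2 fold change was 0.42 ± 0.13 (SE, edgeR p = 0.00759, adjusted p = 0.223, exact permutation p = 0.0216).

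*Elovl5* (chromosome 9, 77917364 to 77984519), which lengthens the products of FADS2, varied more. It had 637, 885 and 1458 normalized CPM in WT and 926, 1336 and 1871 in LKO. WT 2 at 1458 and WT 3 at 1259 stood among the LKO livers, and LKO 6 at 926 stood among the WT livers. The log2 fold change was 0.49 ± 0.20 (SE, edgeR p = 0.0269, adjusted p = 0.342), and the exact permutation p was 0.0584.

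*Fads1* (chromosome 19, 10182888 to 10196877, plus strand), the desaturase whose products are arachidonate and eicosapentaenoate, had the tightest WT group of the branch. It had 601, 684 and 785 normalized CPM in WT and 776, 837 and 1107 in LKO. Only WT 2 (785) reached into the LKO range, above LKO 6 (776). The log2 fold change was 0.34 ± 0.09 (SE, edgeR p = 0.00295, adjusted p = 0.152), with the smallest exact permutation p among the members, 0.00433. LKO 1 held the highest value of *Fads2* (968), *Fads1* (1107) and *Elovl5* (1871) and, at 37698, of *Scd1*.

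*Elovl2* (chromosome 13, 41182381 to 41220405, minus strand), needed for docosahexaenoate synthesis, had 870, 934 and 1187 normalized CPM in WT and 981, 1404 and 1619 in LKO. LKO 6 at 981 was the only LKO liver below any WT liver, and WT 1 (1092) and WT 2 (1187) were above it. The log2 fold change was 0.46 ± 0.12 (SE) with the smallest edgeR p of the members, 0.00134 (adjusted p = 0.110). The edgeR adjusted p was 0.0343 without LKO 6, and with all 12 livers it was 0.0209 once low *Dbp* (replicates 1 and 2 of both genotypes) was a term, chosen after seeing the data. Over all alternatives the adjusted p of *Elovl2* ran from 0.0165 to 0.242.

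*Fads3* (chromosome 19, 10041569 to 10060110, plus strand) ends 2654 nt from the end of *Fads2* and showed the largest fitted fold among the members with a higher value in LKO, 1.73-fold. It had 17.9, 20.7 and 37.4 normalized CPM in WT and 23.2, 36.7 and 57.5 in LKO. WT 2 at 37.4 was above 4 of the 6 LKO livers, and LKO 5 at 23.2 was the lowest of its group. The log2 fold change was 0.79 ± 0.22 (SE, edgeR p = 0.00246, adjusted p = 0.139, exact permutation p = 0.0173). Without WT 2 the log2 fold change was 0.98 and the edgeR adjusted p 0.0382, and with low *Dbp* as a term and all 12 livers the adjusted p was 0.0121. Over all alternatives the adjusted p of *Fads3* ran from 0.00984 to 0.290. *Fads2* and *Fads3* shared 0.152% of the 50-base stretches of *Fads2*.

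Start-site sequences of 6 of the 10 members were matched by symbol in RefSeq (GRCm38.p6). Those of *Fads2*, *Elovl5*, *Elovl2* (the first of 2 entries) and *Fads3* are shown, the members with a sequence and a higher value in LKO at an unadjusted p under 0.05. Each line gives the 250 bases before the annotated start, 5′ to 3′ on the gene's strand, with capitals marking the motifs named below on either strand (chr19:10101504-10101753 minus, chr9:77917115-77917364 plus, chr13:41220404-41220653 minus and chr19:10041298-10041547 plus):
Fads2: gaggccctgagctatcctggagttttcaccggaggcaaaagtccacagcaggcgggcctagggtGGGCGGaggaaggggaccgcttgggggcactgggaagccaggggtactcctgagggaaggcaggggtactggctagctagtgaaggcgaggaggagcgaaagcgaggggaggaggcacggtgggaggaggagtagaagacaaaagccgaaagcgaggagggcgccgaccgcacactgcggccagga
Elovl5: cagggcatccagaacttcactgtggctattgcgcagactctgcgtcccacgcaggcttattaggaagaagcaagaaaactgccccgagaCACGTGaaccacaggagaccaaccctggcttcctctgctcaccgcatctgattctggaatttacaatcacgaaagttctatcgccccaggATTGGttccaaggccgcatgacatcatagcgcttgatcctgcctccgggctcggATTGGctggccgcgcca
Elovl2: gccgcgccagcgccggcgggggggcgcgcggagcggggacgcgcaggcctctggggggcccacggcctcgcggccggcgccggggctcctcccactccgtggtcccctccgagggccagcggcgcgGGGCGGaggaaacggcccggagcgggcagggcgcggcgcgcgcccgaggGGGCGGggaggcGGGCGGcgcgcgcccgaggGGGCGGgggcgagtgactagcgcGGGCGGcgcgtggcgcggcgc
Fads3: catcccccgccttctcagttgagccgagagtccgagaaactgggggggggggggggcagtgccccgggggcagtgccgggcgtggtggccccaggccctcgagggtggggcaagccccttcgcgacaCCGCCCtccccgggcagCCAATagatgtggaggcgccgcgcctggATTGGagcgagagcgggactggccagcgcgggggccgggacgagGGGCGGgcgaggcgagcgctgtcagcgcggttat
In windows of 300 bases (250 before the start and 50 from it on), CCAAT was in 3 of the 6 members with a sequence (*Elovl1*, *Elovl5*, *Fads3*) and in 37.4% of 32851 windows. CACGTG was in *Elovl5* only, 161 bases before its start, and in 7.15% of all windows. GGGCGG was in *Elovl1*, *Elovl2*, *Fads2* and *Fads3* and in 35.7% of all windows. *Elovl2* held it 5 times, and in *Elovl1* the CCAAT match overlapped a GGGCGG match. CACNCCA was in *Elovl1* (18.4% of all windows) and AGGTCA in *Elovl1* and *Elovl6* (16.3%). *Elovl1* and *Elovl2* had 2 windows each, and a member was counted if either matched, while the shares count single windows. In *Elovl1* the CCAAT match was in the first window and those of CACNCCA and AGGTCA in the second. The second window of *Elovl2* held none of the motifs. *Scd1*, *Scd2*, *Fads1* and *Elovl3* had no entry.

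Over the 12 livers, with each genotype's mean removed, pairs of members were compared by the correlation of log2 CPM. Of 45 pairs, 6 had a Benjamini-Hochberg adjusted permutation p under 0.05 for Pearson's r. For Spearman's rho 10 pairs did, these 6 among them. *Scd2* enters no pair described here, since its livers fall into separate levels. The closest pair was *Fads2* with *Fads1* (r = 0.94, rho = 0.89, permutation p = 0.00018 and adjusted p = 0.00405 for r, permutation p = 0.00078 for rho). *Fads1* with *Elovl5* had r = 0.89 and rho = 0.92 (permutation p = 4e-05 and adjusted p = 0.0018 for r, permutation p = 0.00012 for rho). *Fads2* with *Elovl5* had r = 0.85 and rho = 0.83 (permutation p = 0.00086 and 0.00197). The desaturases and the elongase of the early polyunsaturated steps thus varied together among mice of the same genotype.

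*Elovl2* was closest to *Elovl3* (r = 0.85, rho = 0.87, permutation p = 0.00069 and 0.00044, adjusted p = 0.00968 for r). It also varied with its own branch by rank, with rho = 0.80 for *Fads1* (adjusted permutation p = 0.0233) and 0.76 for *Elovl5* (adjusted permutation p = 0.0411). For r, 0.64 with *Fads1* and 0.72 with *Elovl5* did not pass (adjusted permutation p = 0.131 and 0.0529). *Scd1* with *Fads1* had r = 0.64 and rho = 0.78 (permutation p = 0.00507 and 0.00279, adjusted p = 0.0380 for r). The r of *Scd1* was higher with *Elovl6* (0.78, adjusted permutation p = 0.110) and *Elovl5* (0.74, adjusted permutation p = 0.0529), though neither passed. With *Elovl5* its rho was 0.85 (adjusted permutation p = 0.0177). *Elovl6* and *Elovl1* varied in opposite directions (r = -0.83, rho = -0.77, permutation p = 0.00376 and 0.00817). Leaving out the 2 livers farthest from the median of the gene named first in each pair kept *Fads1* with *Elovl5* (r = 0.92, adjusted p = 0.0201) and *Elovl3* with *Elovl2* (r = 0.89, adjusted p = 0.0201). The other 4 of the 6 pairs that passed for r no longer passed with 10 livers. Without LKO 1 and WT 2, *Fads2* had r = 0.83 with *Fads1* (adjusted p = 0.0845) and r = 0.76 with *Elovl5* (adjusted p = 0.140). *Scd1* with *Fads1* had a higher r of 0.77 without WT 3 and WT 5 (unadjusted permutation p = 0.01335). *Elovl6* with *Elovl1* fell to r = -0.63 without WT 3 and WT 6 (adjusted p = 0.198). The low *Dbp* livers are the same 4 livers in every pair, and depth and the clock were not removed.

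**Figure D5:**
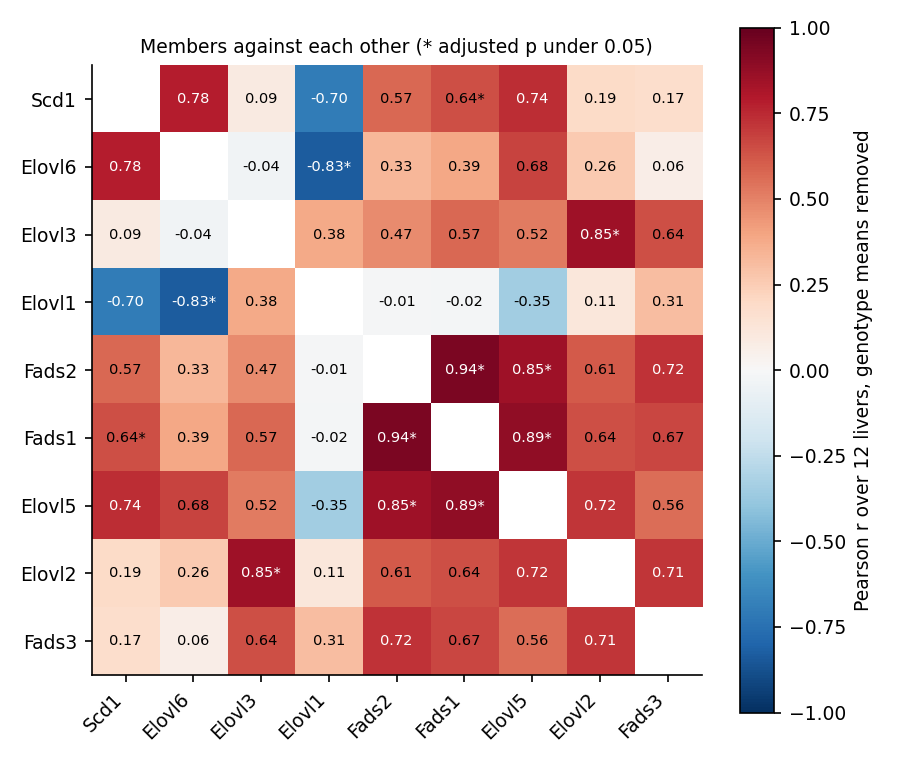
Pearson's r between log2 CPM of 9 members (without *Scd2*) over 12 livers after removal of each genotype's mean, with an asterisk for an adjusted permutation p under 0.05 over all 45 pairs. *Fads2*, *Fads1* and *Elovl5* form a block of 0.85 to 0.94, *Elovl3* pairs with *Elovl2* at 0.85, and *Elovl6* and *Elovl1* stand at -0.83.

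Among 7784 other genes with a mean of at least 10 normalized CPM, those most like each member were ranked by the same genotype-centred r over 12 livers, as a description without a test. *Scd1* was most like *Me1*, malic enzyme and a source of NADPH (r = 0.96), and *Cyb5r3*, a cytochrome b5 reductase (r = 0.94). *Elovl6* was most like *Acaca*, acetyl-CoA carboxylase (r = 0.96), and *Dusp23* (r = 0.95). *Fads2* was most like *Fads1* (r = 0.94) and *Rcc1l* (r = 0.94). *Fads1* was most like *Hspa13*, a microsomal chaperone (r = 0.96), and *Gfpt1*, the entry enzyme of hexosamine synthesis (r = 0.96). *Elovl5* was most like *Plpp5* and *Hsd17b12*, the ketoreductase of the elongation cycle (both r = 0.94). *Il1r1* was among the genes most like *Elovl2* (r = 0.91). *Elovl3* was most like *Slc30a10* and *Slc35a1* (both r = 0.93). *Elovl1* was most like *Bcl3* and *Cdh1* (both r = 0.88), and *Fads3* was most like *Nelfa* (r = 0.94) and *C4bp* (r = 0.92).

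The enzymes that complete the elongation cycle showed no called gene. Among 6 tested, *Hacd1* (log2 fold change 0.41, edgeR adjusted p = 0.245) and *Hacd4* (0.51, adjusted p = 0.403) had an unadjusted p under 0.05, at 4.06 and 1.54 normalized CPM in LKO on average. The abundant dehydratase *Hacd3* was at 214 ± 24.6 normalized CPM in WT and 212 ± 22.1 in LKO (SD, n = 6). *Hacd2* (log2 fold change -0.04), *Tecr*, the final reductase (0.06), and *Hsd17b12* (0.02) were close to 0 on the log2 scale.

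Of the 4 electron donors of the desaturases, 0 had an unadjusted p under 0.05. *Cyb5r3* was at 666 ± 109 normalized CPM in WT and 744 ± 27.1 in LKO (log2 fold change 0.16, edgeR adjusted p = 0.532), with WT 3 highest of all livers at 870. The log2 fold changes of *Cyb5a*, *Cyb5b* and *Cyb5r1* were -0.06, -0.01 and 0.10.

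Of the remaining family members, *Elovl4* had at most 1 read and *Degs2* at most 6 reads in any liver, and neither was tested. *Elovl7* had 0.311 normalized CPM in WT and 0.699 in LKO (log2 fold change 1.23, edgeR adjusted p = 0.374), with LKO 1 at 2.05. *Fads6*, whose substrate is not known, was at 211 ± 33.4 and 196 ± 19.1 normalized CPM (log2 fold change -0.11). *Degs1*, the dihydroceramide desaturase, had a log2 fold change of 0.12 (adjusted p = 0.631), and those of *Scd3* and *Scd4* were -0.28 and 0.03.

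Among 10 regulators, 0 were called, and 3 had an unadjusted edgeR p under 0.05, each with a lower fitted level in LKO. *Srebf2*, which encodes SREBP-2, was at 76.1 ± 8.22 normalized CPM in WT and 56.6 ± 12.2 in LKO (log2 fold change -0.43, adjusted p = 0.165). *Rxra*, the shared partner of LXR and PPARα, had a log2 fold change of -0.20 (adjusted p = 0.247), and *Ppara* one of -0.21 (adjusted p = 0.324). *Srebf1*, which encodes SREBP-1c, was at 157 ± 40.7 normalized CPM in WT and 197 ± 54.5 in LKO (log2 fold change 0.33, adjusted p = 0.524). *Mlxipl*, which encodes ChREBP, and *Nr1h3* and *Nr1h2*, which encode LXRα and LXRβ, had log2 fold changes of -0.05, 0.02 and 0.02. *Insig1*, *Insig2* and *Scap*, which control SREBP processing, had log2 fold changes of 0.01, 0.10 and -0.03. The values are mRNA levels and do not measure processing of the SREBP proteins.

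Of 10 genes of peroxisomal chain shortening, which trims the last polyunsaturated product to docosahexaenoate, 0 were called, 4 had an unadjusted p under 0.05 with higher values in LKO and 1 with lower values. Of 7 tested genes that place fatty acids into phospholipid, 0 were called, 1 had an unadjusted p under 0.05 with higher values in LKO and 1 with lower values. These, named after their values were seen, were *Lpcat3* (log2 fold change 0.27, edgeR adjusted p = 0.184) and *Lclat1* (-0.19, adjusted p = 0.322), and *Lpgat1*, the most abundant, was at 299 ± 50.8 and 286 ± 47.2 normalized CPM.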

How the data were processed

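mRNA of 12 livers was sequenced by the authors on an Illumina HiSeq4000 from KAPA mRNA libraries. Per the methods and the submitters' processing notes, reads were checked with FastQC 0.11.15, trimmed with Trimmomatic 0.36, aligned with HISAT2 2.1.0 to GRCm38 and assigned to Ensembl genes by HTSeq 0.6.1. What the authors deposited are raw read counts, with no normalization or filter. Strand setting and overlap mode of the counting are not given in the sources used here, so overlapping and antisense genes are uncertain. All 12 count columns were used.

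Symbols were matched for 54079 of 54232 gene IDs, and positions and lengths came from GENCODE M21 (GRCm38). A gene was tested if 6 or more livers had over 2 reads (17509 genes). Counts were scaled by TMM and compared two-sided by edgeR 4.0.16 (quasi-likelihood fit, R 4.3.3) on genotype alone, and p-values were adjusted over the whole table by Benjamini-Hochberg. The study's own test, limma voom (limma 3.58.1), and DESeq2 1.42.0 were alternatives. Normalized CPM are counts per 1000000 reads of the TMM-scaled library, and log2 CPM used a prior count of 0.5. Levels per length divide normalized CPM by the union of exons in kb. Single genes were also compared by exact permutation of livers. Pairs of members used 100000 permutations within genotype, for which 1e-05 is the smallest possible p. Exact matches to 5 motifs were searched in RefSeq start-site windows. Reads carry no molecular identifiers, so depth covers counting error only. The tests were also run on simulated counts with set changes larger than those of the members higher in LKO. That run does not gauge power at the members' own fold changes.

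Other alternatives were RLE and upper-quartile scaling, TMM without the 20 most abundant genes, no filter, at least 10 reads in every liver, the replicate number as a block, and each liver left out in turn. A term for low *Dbp* (under 40 normalized CPM) and fits on replicates 3 to 6, with and without WT 3, were chosen after seeing the data. The members and gene lists were chosen with earlier results of these data known. Named were all members, the family, elongation, electron donor and regulator lists, other lists' called or most abundant gene, and the 2 genes most like each member, apart from *Scd2*, whose likeness is not given. Some genes of this rule are not reported here. *Dbp*, *Alb*, *March6* and the adipocyte genes were named for the checks they serve. Of the lists used as checks, *Ighm* (B cell markers, log2 fold change -1.78, edgeR adjusted p = 4.06e-06) and *Cela1* (pancreatic markers, -0.97, adjusted p = 0.0107) were lower and *Cyp4a12a* (male-biased genes, 0.59, adjusted p = 0.00999) was higher in LKO. These single genes do not stand for their lists. Of the B cell markers 5 of 6 had higher fitted values (median log2 fold change 0.85, 4 with an unadjusted p under 0.05), and of the male-biased genes 9 of 10 had lower ones (median -0.27, 4 with an unadjusted p under 0.05). *Cela2a*, the other pancreatic marker tested and named after its value was seen, had a log2 fold change of 0.58 (edgeR adjusted p = 0.675), and the remaining 4 had at most 2 reads in any liver. Counts of called genes were 0 in the hepatocyte, Kupffer, endothelial, stellate, cholangiocyte, adipocyte and clock lists, in which 2, 9, 1, 1, 1, 1 and 0 genes had an unadjusted p under 0.05. Their most abundant genes were *Alb*, *Clec4f* (45.0 normalized CPM in WT), *Stab2* (45.7), *Dcn* (96.2), *Spp1* (37.8), *Car3* (2350) and *Tef*.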

Additional observations from a re-analysis of the deposited data

Results flagged for a closer look

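A sample far from the rest of its group was sought by Dixon's rule in 20 groups, 2 for each member, of which chance flags about 1 in 20. The rule marked 3. *Scd2* in LKO 4 was at 59.98 normalized CPM against 19.3 in the next liver, a gap of 0.813 of the group's range. *Fads1* in LKO 1 was at 1107 against 893, a gap of 0.647 of the range. *Fads3* in WT 2 was at 37.4 against 22.7, a gap of 0.756 of the range. What sets these livers apart was not tested.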

How the results depend on the processing

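In the fits of all 12 livers and of subsets, 213 of 230 values of a single member's log2 fold change kept their direction and their side of the threshold, 12 passed the adjusted threshold and 5 changed sign. The sign changes were those of *Elovl3* without WT 3 (-0.0047), WT 5 (-0.032), LKO 1 (-0.0078) or LKO 2 (-0.018), and of *Elovl1* in replicates 3 to 6 without WT 3 (-0.017), with a range of -0.032 to 0.25 for *Elovl3* over livers left out in turn. Genes called over the whole table were 114 without a filter, 350 with DESeq2, 170 with low *Dbp* as a term, 28 in replicates 3 to 6, 132 without WT 3, 38 without WT 5, and 38 to 132 over all livers left out in turn, against 75. Members called were 4 with DESeq2, 2 with low *Dbp* as a term (*Elovl2*, *Fads3*) and 1 in replicates 3 to 6 without WT 3 (*Scd1*), and 0 to 1 with livers left out in turn. Members whose groups did not overlap numbered 1 with upper-quartile scaling (1.34% of all genes) and 1 with at least 10 reads in every liver (1.58%), in both cases *Fads1*. They numbered 3 in replicates 3 to 6 (6.01% of all genes) and 7 in the same without WT 3 (12.5%). With livers left out in turn they numbered 0 to 2 (1.54% to 2.45% of all genes). Pairs passing without their 2 farthest livers were 3 instead of 6, of which 2 had passed with all 12 livers. The cause of these differences was not tested, except that fewer livers overlap less often.

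The labels number mice 1 to 6 in each genotype. Of 6 pairs of equal number, 5 had deviations correlated above 0.1 (-0.23 to 0.46), and 3 of 6 LKO livers correlated best with their own number. Because replicate 3 was at -0.23, the numbers were not taken to pair the livers. Replicates 1 and 2 of both genotypes shared low *Dbp*, so livers of equal number may share structure that the main fit leaves out. With the replicate block 97 genes and 2 members were called, *Elovl2* (adjusted p = 0.0330) and *Fads3* (adjusted p = 0.00984).

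Depth limited the rare family members (*Elovl4*, *Degs2*), not the 10 genes described.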
